A study of Mus musculus with 2 samples.

Results

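The ABC transporters are membrane pumps, and related soluble proteins, that share an ATP-binding cassette and fall into subfamilies A to G by sequence. In liver they load lipids onto lipoproteins, secrete phospholipid, sterols, bilirubin and drug conjugates into bile or blood, and move metabolites across mitochondrial, peroxisomal and lysosomal membranes. Members of subfamilies E and F have no membrane part and act in protein synthesis. Bile canaliculi carry the phospholipid floppase Abcb4, the conjugate pump Abcc2 and the sterol pump made of Abcg5 and Abcg8, whereas Abcc3 and Abcc4 face the blood.

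The genes were chosen by name. All protein-coding genes of GENCODE M21 whose symbol is Abc, a subfamily letter a to g, a number and at most 1 further letter were taken, with 1 gene of subfamily B left out, which gave 49 of the 55421 genes in the count tables. Liver RNA was sequenced in 2 libraries, 1 from WT mice and 1 from Rcrin knockout mice, both with a time label of 8 weeks. The mice called WT are Rcrin flox mice, and the knockout is conditional. Which cells lost Rcrin, by which transgene, and how many mice of which sex gave a library is not given in the sources used here. No entry named Rcrin was found in the annotation tables used here, so its own level was not analysed here.

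Total counts were 65121596 for WT and 63587567 for the knockout. With 1 library per genotype there was no test and no p-value, and all differences given are differences between the libraries, not between genotypes in general. Ratios are log2 values of knockout over WT after scaling for library size, each with an exact 95% interval that covers counting error only and says nothing of the spread between mice. Genes whose mean over both libraries reached 50 counts were compared, and those that differed by 2-fold or more (a log2 ratio of 1 or beyond in either direction) are called higher or lower. Hepatocyte markers were abundant in both libraries, with 10 of 10 compared, summed levels of 92386 CPM (counts scaled to library size) in WT and 141581 in the knockout (42022 and 51639 without Alb), and a median log2 ratio of 0.43. In bulk tissue, fewer cells of a type and less RNA per cell cannot be told apart.

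Of the 49 genes, 36 reached a mean of 50 counts, among them 9 of 16 in subfamily A, 6 of 9 in B, 8 of 10 in C, 4 of 4 in D, 1 of 1 in E, 3 of 3 in F and 5 of 6 in G. The lowest gene inside the limit was Abca5 with a mean of 87.5 counts, and the highest outside it was Abcb1b with 29.5. Abca12, Abca13, Abca15, Abca16, Abca17, Abcb5, Abcc8 and Abcg4 were listed at 0 in both libraries, where a count of 0 allows up to 0.0461 CPM in WT and 0.0472 in the knockout. They include genes best known from other organs, such as Abca12 of skin and Abcc8, the sulfonylurea receptor of the pancreatic islet. Abca14 had 0 and 8 counts in WT and knockout, Abca4, the retinal transporter, 5 and 3, and Abcc12 16 and 26. Among the transporters that mark liver function, Abca1, Abcb4, Abcc2, Abcg5 and Abcg8, the lowest count was 1226, for Abcg8 in WT.

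Stretches of 3 promoters are shown because they belong to the results that follow. The first is the stretch between the start of Abcg5 and one of the RefSeq starts of Abcg8 (position 84683121), on opposite strands, for a pair that both stood above 0. A further Abcg8 start in RefSeq, at 84676302, lies inside Abcg5, so the gene models themselves overlap. The second lies before Abca1, another gene of sterol efflux, whose counts were nearly even. The third lies before Abca5, one of the genes past 2-fold. Sequences are from RefSeq on GRCm38.p6, 5′ to 3′ on the strand given, end at the base before the first transcribed base, overlap no exon of GENCODE M21, and have the searched motifs in capitals. The motif searched as a GC box was GGGCGG, and the CCAAT box was searched by the letters of its name. For the TATA box the letters were TATAAA, and those of the E-box were CACGTG. A nuclear receptor site was taken as AGGTCA and a GATA site as AGATAA. The core of the antioxidant response element was TGACNNNGC, and the last motif was a loose form of the direct repeat bound by the oxysterol receptor LXR. Both strands were searched.

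Abcg5 to Abcg8, chr17:84683012-84683120, + strand: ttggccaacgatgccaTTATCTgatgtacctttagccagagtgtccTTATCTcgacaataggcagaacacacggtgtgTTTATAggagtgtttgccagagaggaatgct
Abca1, chr4:53159896-53160145, - strand: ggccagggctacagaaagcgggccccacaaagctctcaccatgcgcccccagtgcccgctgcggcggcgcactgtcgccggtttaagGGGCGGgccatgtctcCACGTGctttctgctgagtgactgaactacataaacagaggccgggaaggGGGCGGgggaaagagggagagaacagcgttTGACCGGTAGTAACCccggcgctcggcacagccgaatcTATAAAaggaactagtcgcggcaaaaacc
Abca5, chr11:110337717-110337966, - strand: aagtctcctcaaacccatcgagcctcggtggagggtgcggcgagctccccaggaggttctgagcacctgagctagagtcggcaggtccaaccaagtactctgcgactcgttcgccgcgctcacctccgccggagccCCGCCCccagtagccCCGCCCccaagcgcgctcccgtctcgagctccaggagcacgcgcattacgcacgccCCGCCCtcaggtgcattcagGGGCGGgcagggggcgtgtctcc

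The stretch between these starts of Abcg5 and Abcg8 is 109 bases long and holds 2 GATA sites and a TATA box, all on the minus strand, which is the strand of Abcg5. Of 32851 RefSeq windows, 3.98% hold a GATA site and 5.90% a TATA box within the 109 bases before the first transcribed base. The 250 bases before Abca1 hold 2 GC boxes, an E-box, a TATA box and, on the opposite strand, the loose LXR repeat as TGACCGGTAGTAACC. That repeat was present in 0.177% of windows of 250 bases, and in none of the other 36 ABC genes with a window. The stretch before Abca5 holds 4 GC boxes, which 32.7% of windows hold at least once. These are matches of letters, not measured sites.

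Across the family 4 genes stood higher and 1 lower in the knockout library by at least 2-fold, 11.1% and 2.78% of the 36 compared. Among all 12064 compared genes 8.64% were higher and 8.46% lower, and among the 5673 of them with at least 10 exons 5.78% and 6.59%. All 36 compared ABC genes have at least 10 exons. The higher genes were Abcd2, Abca5, Abcg2 and Abca8a, and the lower gene was Abcc4. With the trend of the ratio with GC content removed, as described further on, the split was 2 higher and 2 lower. The median log2 ratio was -0.04, beside 0.00 over all compared genes, with 16 of the 36 above 0. Counting intervals lay wholly above 0 for 13 genes, wholly below for 15, and held 0 for 8. The median size of the log2 ratio was 0.45 in the family, 0.44 over all compared genes and 0.39 over those with at least 10 exons.

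**Figure D1:**
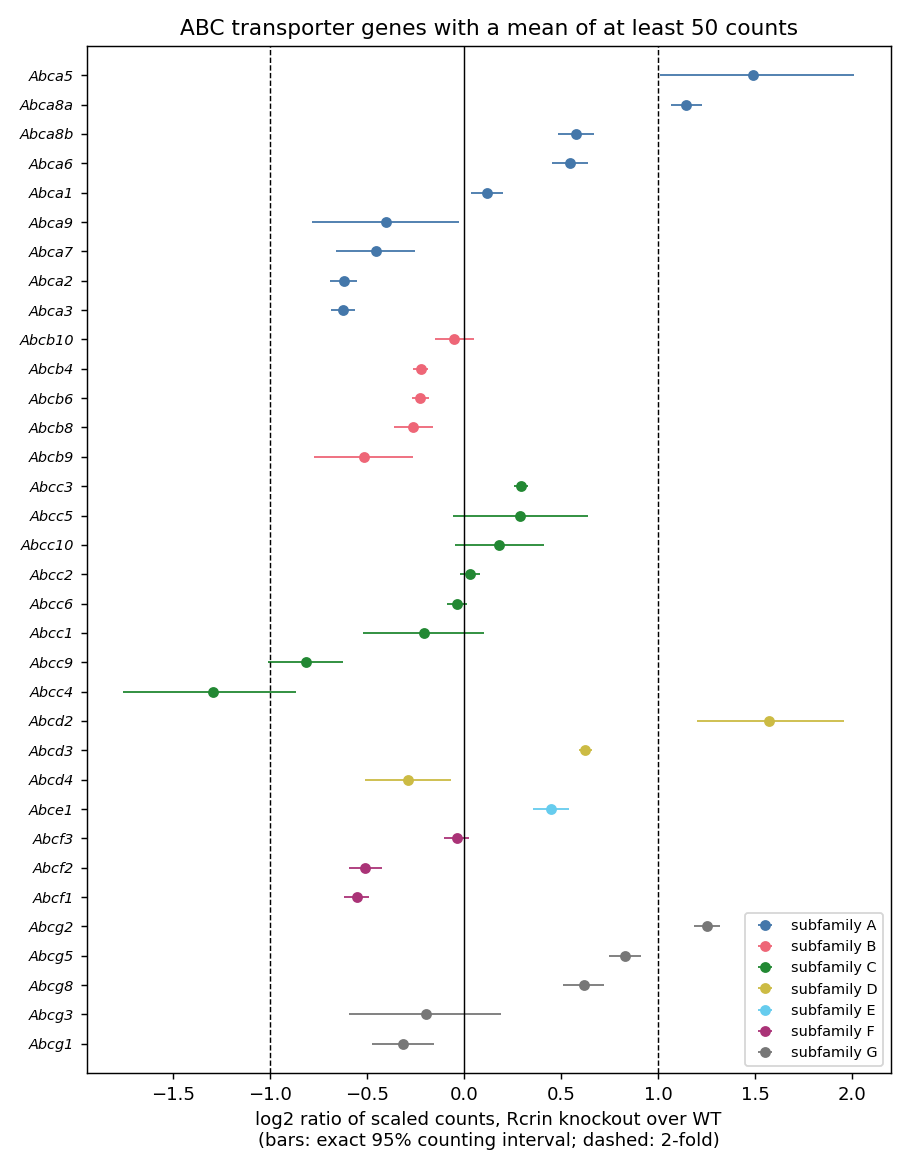
Log2 ratio of Rcrin knockout over WT (horizontal axis) for 34 of the 36 compared ABC transporter genes, coloured by subfamily, with 1 library per genotype. Bars are exact 95% intervals for counting error and dashed lines mark 2-fold. Abca5, Abca8a, Abcd2 and Abcg2 lie to the right of the upper line and Abcc4 to the left of the lower line.

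Summed over all 49 genes, the family took 0.162% of the WT counts (exact binomial interval 0.161 to 0.163%) and 0.170% of the knockout counts (0.169 to 0.171%). The sums of its subfamilies differed from each other. Subfamily G took 0.0104% and 0.0184%, a log2 ratio of the scaled sums of 0.89 (interval 0.85 to 0.94). Subfamily D took 0.0233% and 0.0322% (log2 ratio 0.53), most of it from Abcd3. Subfamilies F (-0.35) and B (-0.18) stood lower, and subfamily A (0.02) and subfamily C (0.13) differed least. A sum is led by its most abundant genes. The median over the single genes of subfamily A was 0.12, that of B -0.22, of C 0.00, of D 0.17, of F -0.51 and of G 0.62. Subfamily E has 1 gene, Abce1, at 0.45. These sums and medians keep the GC trend, whose removal moved single genes in both directions. It took Abcd3 from 0.63 to 0.32 and Abcg8 from 0.62 to 0.77.

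**Figure D2:**
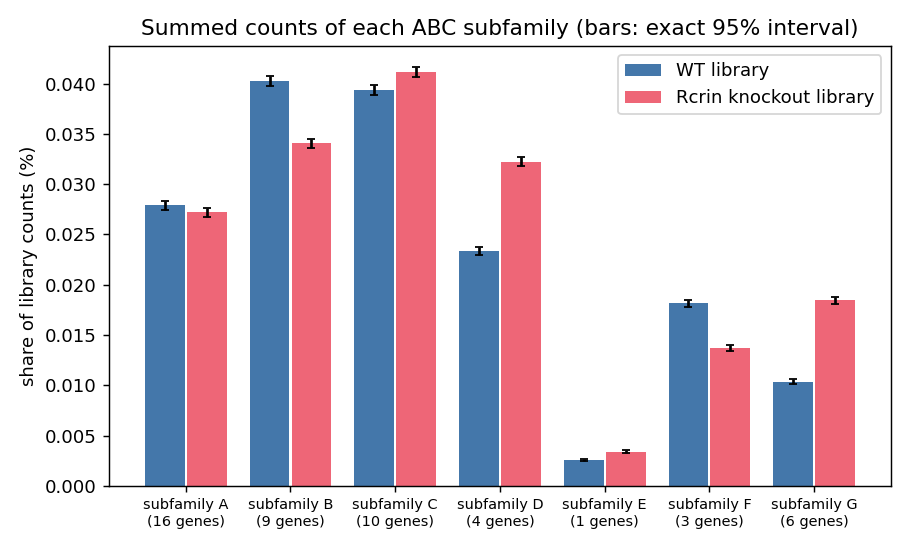
Share of each library's counts (percent, vertical axis) taken by the summed genes of each ABC subfamily in the WT library and the Rcrin knockout library. Error bars are exact 95% binomial intervals. Subfamily G stood at 0.0104% in WT and 0.0184% in the knockout, while subfamily A stood at 0.0279% and 0.0272%.

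The levels of different genes were compared per base of merged exon, scaled to the same total in each library. On that scale the compared genes ran from 0.144 (Abca5) to 71.4 (Abcc3) in WT. Abcc3, which exports glucuronides to the blood, stood first in WT at 71.4 and second in the knockout at 78.7. Abcd3, a long-chain acyl-CoA importer of peroxisomes, stood second in WT at 67.0 and first in the knockout at 92.9. Abcb6 held position 3 in both libraries at 59.7 and 46.0. The fourth was Abcb4 in WT, at 45.4 and 35.0, and Abcg5 in the knockout, at 24.1 and 38.4. The order depends on the length used. With the median transcript length of each gene, Abcc2 was highest in WT and Abcc3 in the knockout, and levels were 0.395 to 5.69 times those given here. The length scale also sets the knockout lower by 0.15 on the log2 scale than the scaled counts do, so direction and size of differences below are taken from the scaled counts.

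**Figure D3:**
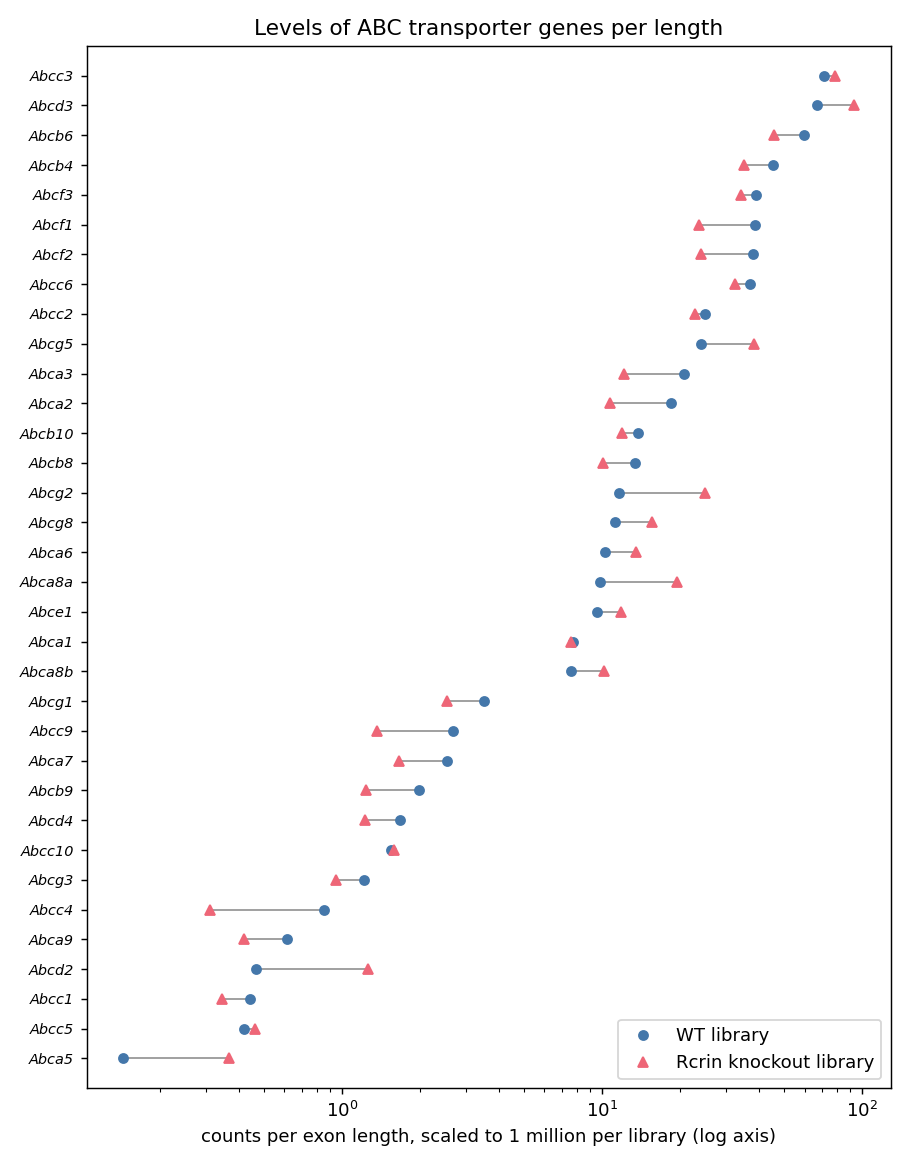
Level of 34 of the 36 compared ABC transporter genes per exon length, scaled to the same total in each library, on a log axis. Circles are the WT library and triangles the Rcrin knockout library, in the order of the WT level. Abcc3, Abcd3 and Abcb6 were the 3 highest genes in both libraries, and Abcc4 had the lowest level in the knockout at 0.310.

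Biliary sterol secretion depends on Abcg5 and Abcg8, which form an obligate heterodimer. Abcg5 (ENSMUSG00000040505, GRCm38 chr17:84658234-84683011, minus strand) had 1898 counts in WT and 3153 in the knockout, a log2 ratio of 0.83 (interval 0.75 to 0.91). Abcg8 (ENSMUSG00000024254, chr17:84676302-84700333, plus strand) had 1226 and 1761 counts, a log2 ratio of 0.62 (0.51 to 0.72). Their levels per exon length were 24.1 and 38.4 for Abcg5 and 11.2 and 15.5 for Abcg8. Both partners stood higher in the knockout library, by 1.77-fold and 1.53-fold, under the 2-fold limit. Their transcripts overlap by 82 exon bases on opposite strands, 3.02% of the exon bases of Abcg5 and 2.19% of those of Abcg8. Since the use of strand was not given, reads from those bases cannot be assigned. Per exon length Abcg5 was 2.14 times Abcg8 in WT and 2.48 times in the knockout. With the GC trend removed the log2 ratios were 0.85 and 0.77. Both partners thus stayed above 0, and the value of Abcg8 moved beyond its counting interval.

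Abcg2, a broad exporter of urate, porphyrins and drugs at the canaliculus, was the most abundant gene past the 2-fold limit. Abcg2 (ENSMUSG00000029802, chr6:58584523-58695676, plus strand) had 2759 counts in WT and 6150 in the knockout, a log2 ratio of 1.25 (interval 1.19 to 1.32), 2.38-fold higher. Its level per exon length was 11.6 in WT, position 16 of 36, and 24.9 in the knockout, position 8. With the GC trend removed its ratio was 0.92, under 2-fold. Abcg1, which passes cholesterol to lipoproteins in macrophages and other cells, had 743 and 560 counts (log2 ratio -0.31). Abcg3 had 125 and 102 counts (-0.20), with an interval (-0.59 to 0.19) that held 0. With the GC trend removed Abcg3 was at -0.60, just below that interval. Subfamily G was thus higher through Abcg2, Abcg5 and Abcg8, while Abcg1 and Abcg3 lay below 0.

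Abca1 loads cholesterol and phospholipid onto apolipoprotein A-I to form HDL. Abca1 (ENSMUSG00000015243, chr4:53030787-53159895, minus strand) had 2338 counts in WT and 2378 in the knockout, a log2 ratio of 0.12 (interval 0.04 to 0.20), and its level per exon length was 7.75 and 7.57. Abca1 and Abcg1 are classic LXR targets together with Abcg5 and Abcg8, and in these libraries the ratios of the 4 ran from -0.31 to 0.83. Abca1 and Abcg1 are also made by macrophages. Of 10 markers of Kupffer cells and macrophages, 10 were compared, 1 was higher and 1 lower, the median log2 ratio was -0.39, the summed level was 1405 CPM in WT and 1054 in the knockout, and 0 were at 0. Over all compared genes 8.64% were higher and 8.46% lower. The part of Kupffer cells and macrophages in the values of Abca1 and Abcg1 was not tested.

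Among the other genes of subfamily A, a cluster on chromosome 11 held the higher values. Abca8b, Abca8a, Abca9, Abca6 and Abca5 lie in that order on the minus strand between 109932190 and 110337716, with 4770 to 29788 bases between neighbours. Their cassette transporters are lipid pumps of which little is settled, although Abca5 is placed in lysosomes. Abca8a had 1783 and 3695 counts in WT and knockout, a log2 ratio of 1.15 (interval 1.06 to 1.23), 2.21-fold higher, and a level per exon length of 9.77 and 19.4. Abca5 had 48 and 127 counts, a log2 ratio of 1.49 (1.01 to 2.01), 2.81-fold higher, with levels of 0.144 and 0.366, and at this depth its size is loosely set. Abca6 (1614 and 2205 counts, 0.55) and Abca8b (1641 and 2290 counts, 0.58) stood higher by less, and Abca9 (144 and 102 counts, -0.40) stood lower. So 4 of the 5 neighbours were above 0, and 2 of them past 2-fold. All 5 have transcripts under 45% GC, where 76.1% of the compared genes with at least 10 exons were above 0, so the count of 4 is near that share. Abca8a and Abca8b are close paralogs, but only 1.64% of the 50-base stretches of Abca8a transcripts occur in Abca8b. With the GC trend removed Abca5 was at 1.02, Abca8a at 0.80, Abca8b at 0.25, Abca6 at 0.19 and Abca9 at -0.77.

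The remaining compared genes of this subfamily stood lower. Abca2, a lysosomal sterol and sphingolipid transporter, had 4449 and 2711 counts (log2 ratio -0.62, interval -0.69 to -0.55). Abca3, known for filling surfactant organelles in lung, had 5643 and 3433 counts (-0.62, interval -0.68 to -0.56). Abca3 had the highest level of subfamily A per exon length in WT, at 20.7, and 12.1 in the knockout, where Abca8a was highest at 19.4. Abca7, a phospholipid transporter related to Abca1, had 496 and 339 counts (-0.45). These genes have GC contents of 57.5%, 54.4% and 58.9%, and their ratios were -0.38, -0.44 and -0.21 with the GC trend removed.

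Abcb4 flips phosphatidylcholine into the canalicular membrane for bile and protects the biliary tree from bile salts. Abcb4 (ENSMUSG00000042476, chr5:8893717-8959231, plus strand) had 12409 counts in WT and 9949 in the knockout, a log2 ratio of -0.22 (interval -0.26 to -0.18), 1.17-fold lower. Because Abcb4 has a low GC content of 41.1%, removal of the GC trend moved it to -0.65, farther from 0. Its direct neighbours on chromosome 5, the drug-efflux P-glycoproteins Abcb1a and Abcb1b, were too low to be compared singly. Abcb1a had 38 and 18 counts and Abcb1b 45 and 14, and 22.5% and 12.8% of their 50-base stretches occur in transcripts of other genes, mostly of each other. Summed, they had 83 and 32 counts, a log2 ratio of -1.27 (interval -1.92 to -0.68). All 3 neighbours were lower in the knockout library, but the values of the P-glycoproteins rest on few reads.

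The other genes of subfamily B described here stood within 2-fold. Abcb10, needed for heme synthesis, had 1721 and 1556 counts (-0.05, with an interval that held 0), and Abcb8, part of a mitochondrial potassium channel, had 1847 and 1443 (-0.26). Abcb6, a porphyrin transporter, was the highest of the subfamily per exon length, with 9238 and 7402 counts (-0.22, interval -0.27 to -0.18). A processed transcript, Gm29253, covers 55.2% of its exon bases on the same strand and was itself listed at 0 in both libraries. The lysosomal peptide transporter Abcb9 had 321 and 210 counts (-0.52). The direction of Abcb10 turned above 0 with the GC or the length trend removed. With the GC trend removed Abcb6 was at -0.04, Abcb8 at -0.03 and Abcb9 at -0.26, and with a linear GC trend Abcb6 (0.01) and Abcb8 (0.06) were also above 0.

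The abundant genes of subfamily C differed by little before the GC trend was removed, although Abcc3 stood above 0 beyond counting error. Abcc2, the canalicular pump for bilirubin glucuronides and glutathione conjugates (ENSMUSG00000025194, chr19:43782192-43840740, plus strand), had 6164 counts in WT and 5899 in the knockout, a log2 ratio of 0.03 (interval -0.02 to 0.08), with levels per exon length of 24.8 and 22.8. Its ratio was -0.03 under scaling by total count and -0.23 with the GC trend removed, so it has no firm direction. Abcc6, whose release of ATP supplies the mineralization inhibitor pyrophosphate, had 6158 and 5619 counts (-0.04, interval -0.09 to 0.02), which was above 0 with the GC or the length trend removed. Abcc3, the basolateral relative of Abcc2, had 11839 and 13596 counts (0.30, interval 0.26 to 0.33). These 3 abundant genes lay within a 1.23-fold difference before, though not after, the GC trend was removed, when Abcc3 was at 0.48.

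Abcc4, a basolateral exporter of bile acids and cyclic nucleotides that is usually low in healthy liver, was the compared gene farthest below 0. Abcc4 (ENSMUSG00000032849, chr14:118482692-118706219, minus strand) had 158 counts in WT and 60 in the knockout, a log2 ratio of -1.29 (interval -1.76 to -0.86), 2.45-fold lower, and levels per exon length of 0.850 and 0.310. The interval reaches inside 2-fold, so the size is uncertain from counting alone. GC content does not move it much, as it was at -1.31 with the trend removed. Abcc9, the sulfonylurea receptor of vascular potassium channels, had 649 and 345 counts, a log2 ratio of -0.82 (interval -1.01 to -0.63), and -1.02 with the GC trend removed. Its channel partner Kcnj8 had 554 and 417 counts (-0.31), and Kcnj11, the islet partner of Abcc8, was listed at 0 in both. Abcc9 is known from smooth muscle and pericytes. Of 10 markers of stellate cells and smooth muscle, 10 were compared, 3 were lower and 0 higher, the median was -0.50, the summed level was 130 CPM in WT and 115 in the knockout, and 0 were at 0. Over all compared genes 8.46% were lower and 8.64% higher. The part of stellate cells and smooth muscle in the value of Abcc9 was not tested.

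The other genes of subfamily C were low and showed no clear difference before the GC trend was removed. Abcc1, a conjugate and leukotriene exporter, had 195 and 158 counts (log2 ratio -0.21). Abcc5, an exporter of cyclic nucleotides, had 131 and 150 (0.29), and Abcc10 had 309 and 328 (0.18). Each of these intervals held 0, so at this depth no difference was detectable from counting error in the main setting. With the GC trend removed Abcc10 was at 0.43 (0.60 with a linear trend), above its interval of -0.05 to 0.41. Abcc1 was then at -0.14 and Abcc5 at 0.29, within their intervals.

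Peroxisomal importers of fatty acyl-CoA make up most of subfamily D. Abcd2, an importer of very-long-chain acyl-CoA, had the highest ratio of the family. Abcd2 (ENSMUSG00000055782, chr15:91145871-91191799, minus strand) had 81 counts in WT and 226 in the knockout, a log2 ratio of 1.57 (interval 1.20 to 1.96), 2.97-fold higher, with levels per exon length of 0.468 and 1.25, and stood at 1.16 with the GC trend removed. Abcd3 had 12854 and 18558 counts, a log2 ratio of 0.63 (0.59 to 0.66) that was 0.32 with the GC trend removed, and alone took 12.2% of all ABC counts in WT and 17.1% in the knockout. Abcd4, which works in lysosomal release of cobalamin, had 389 and 298 counts (-0.29, and -0.14 with the GC trend removed). Abcd2 and Abcd3, with 41.6% and 44.3% GC, thus lay above 0, and Abcd4, with 53.5% GC, below.

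Subfamilies E and F act at the ribosome. Abce1, which splits ribosomes for recycling, had 1676 and 2142 counts, a log2 ratio of 0.45 (interval 0.36 to 0.54), and levels per exon length of 9.59 and 11.8. It has 40.4% GC, and the ratio was 0.00 with that trend removed. Abcf1, which works with initiation factor eIF2, had 4954 and 3162 counts (-0.55), and Abcf2 had 2842 and 1871 (-0.51). Abcf3, the highest of subfamily F per exon length, had 4029 and 3675 counts (-0.04, interval -0.10 to 0.03) and levels of 38.9 and 34.1, and its direction turned with the GC or the length trend removed. Abce1 thus stood above 0 and Abcf1 and Abcf2 below it, but with the GC trend removed Abce1 lay at 0 while Abcf1 (-0.33) and Abcf2 (-0.37) stayed below.

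GC content moved with these ratios. Over the 36 compared ABC genes Pearson's r between transcript GC content and the log2 ratio was -0.54 and Spearman's rho -0.51, a description across genes of the same libraries. Over the 5673 compared genes with at least 10 exons the values were -0.33 and -0.43. Of the 12 ABC genes under 45% GC, 9 were above 0, with a median log2 ratio of 0.60, and they include all 4 genes past 2-fold upwards. In that band 12.2% of the 1104 genes with at least 10 exons were higher by 2-fold, 2.81% were lower, 76.1% were above 0, which is near the 75% of the ABC genes, and the median was 0.37. Of the 8 ABC genes with at least 55% GC, 1 was above 0, with a median of -0.38, beside 23.7% above 0 and a median of -0.33 over the 1439 genes with at least 10 exons in that band. The bands were set after the values were seen. Removing the trend over all genes left Abcd2 (1.16), Abca5 (1.02) and Abcc4 (-1.31) past 2-fold, brought Abcg2 (0.92) and Abca8a (0.80) inside it and took Abcc9 (-1.02) beyond it. Whether the GC trend comes from the genotype or the library cannot be told apart with 1 library each.

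**Figure D4:**
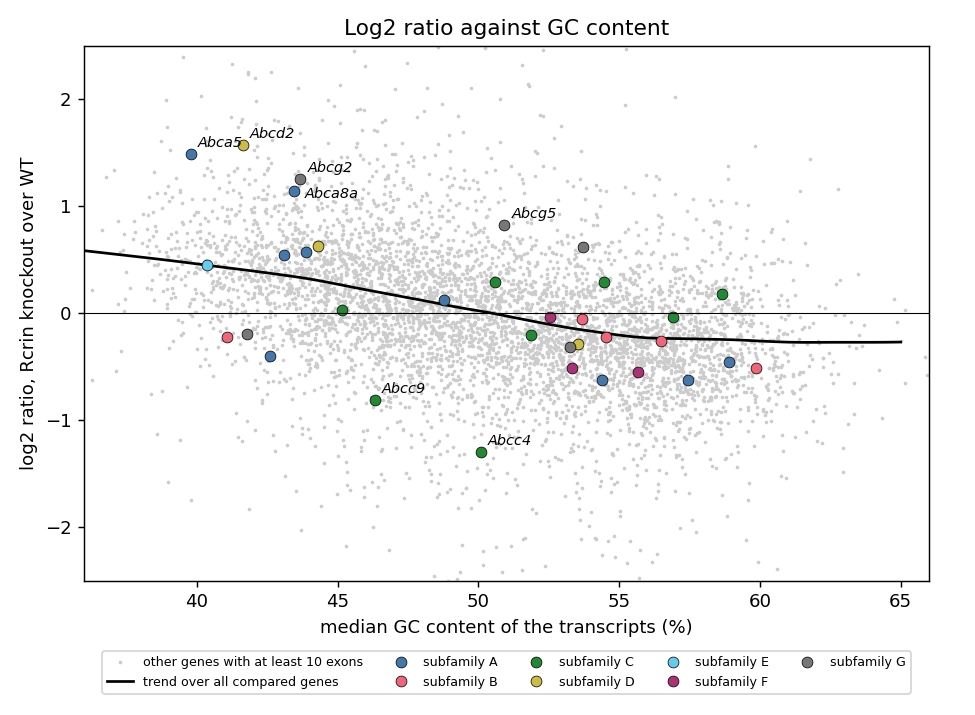
Log2 ratio of Rcrin knockout over WT (vertical axis) against the median GC content of each gene's transcripts (percent, horizontal axis). Large points are 34 of the 36 compared ABC genes by subfamily, grey points are other genes with at least 10 exons (67 of 5637 lie outside the axes), and the line is the trend over all compared genes with counts in both libraries. Abcd2, Abca5, Abcg2 and Abca8a lie above the line at the low-GC end, and Abcc4 lies below it.

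The genes that surround these transporters were taken from lists. Their calls, here and in the next paragraphs, stand beside 8.64% higher and 8.46% lower (17.1% either way) among all 12064 compared genes. Receptors and factors that control ABC genes had 4 higher and 3 lower of 18 compared, with a median log2 ratio of 0.05. Nr5a2, a bile acid and sterol regulator that activates Abcg5 and Abcg8 promoters, was highest at 2.08 (316 and 1253 counts). The retinoid receptor Rxra, the obligate partner of LXR, was lowest at -1.13 (13896 and 5931 counts). The LXR gene Nr1h3 had 12686 and 12540 counts (0.08) and Nr1h2 4657 and 3392 (-0.36). LXR targets that are no ABC genes had 1 higher and 1 lower of 16, with a median of 0.12, from Scd2 at -3.55 (156 and 12 counts) to Lpl at 1.03 (1020 and 1949 counts). Both lists had members on both sides of 0, and their medians were 0.21 and 0.12 with the GC trend removed.

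Partners in bile and HDL varied gene by gene. Canalicular and bile partners had 1 higher and 0 lower of 17 compared, with a median of 0.04 (0.05 with the GC trend removed). Radixin (Rdx), which anchors Abcc2 in the canalicular membrane, was highest at 2.24, with 1032 and 4562 counts, and the cation exporter Slc47a1 lowest at -0.65 (6787 and 4035 counts). HDL and reverse cholesterol transport genes had 2 higher and 2 lower of 17, with a median of 0.02 (0.24 with the GC trend removed). Apoa2 was highest at 1.51 (412681 and 1096775 counts). Apoa1, the acceptor of Abca1 lipid, was at 0.02. Rdx was past 2-fold in these libraries while Abcc2 itself was near even.

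Partners of the organelle and ribosome members were also compared. Peroxisomal and cobalamin genes beside subfamily D had 1 higher and 1 lower of 16, with a median of 0.10 with or without the GC trend. The lowest, and the only one past 2-fold downwards, was the cobalamin enzyme Mmachc, which is not peroxisomal, with 311 and 85 counts (-1.77). Heme and iron-sulfur genes beside subfamily B had 0 higher and 2 lower of 18, with a median of 0.16 (0.25 with the GC trend removed). They ran from Cpox at -1.76 (4778 and 1321 counts) to Lyrm4 at 0.64 (540 and 787 counts). Translation partners had 1 higher and 0 lower of 13, with a median of 0.40, from Gcn1l1 at -0.35 (3928 and 2892 counts) to the eIF2 subunit Eif2s1 at 1.29 (978 and 2242 counts), and the median was 0.09 with the GC trend removed. Among 3 ABC proteins that carry other names, Tap1 had 2664 and 1812 counts (-0.46) and Tap2 2508 and 1434 (-0.71), both peptide transporters of antigen presentation. The chloride channel Cftr had 0 and 12 counts, too few to be compared.

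Markers of other cells also differed between the libraries. Among all compared genes 8.64% were higher by 2-fold and 8.46% lower. Neutrophil markers were lower, with 6 of 10 past 2-fold, a median of -1.59 and summed levels of 583 CPM in WT and 44.6 in the knockout. Lcn2 alone made up 515 and 17.7 CPM of these sums, and without it they were 67.7 and 26.9 CPM, 2.52-fold lower in the knockout. Of 7 red blood cell markers compared 5 were lower, with a median of -2.33, summed levels of 3078 and 789 CPM, and Epb42 at 0 in both. The red blood cell markers also split, as Alas2 (0.56, 13871 and 19110 counts) and Klf1 (0.41, 98 and 122 counts) stood above 0. Sinusoidal endothelial markers had a median of -0.44 (10 compared, summed 411 and 402 CPM), and ran from Oit3 at -1.12 to Fcgr2b at 1.26. Medians were -0.32 for cholangiocytes (6 compared, 42.3 and 27.5 CPM, Cftr at 0 in WT) and -0.55 for lymphocytes (6 compared, 14.5 and 14.1 CPM). The lymphocyte markers split. Cd3d (-0.81), Cd8a (-1.34), Cd4 (-0.43) and Nkg7 (-0.68) stood lower, and the B cell markers Cd79a (0.76) and Cd79b (0.86) higher. The part of these cells in the ABC values was not tested.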

How the data were processed

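The authors deposited 1 table of raw, whole-number read counts per gene ID for each of 2 liver libraries, per the file headers. Per the labels' protocols RNA was extracted with Trizol and libraries were made with a SMARTER mRNA-Seq kit, and the submitters' processing notes name the build GRCm38 (mm10). The aligner, counter, annotation release and use of strand are not given in the sources used here. Groups came from the genotype label. GENCODE M21 gave 55240 of 55421 genes a name, exons and GC content. The members and lists were chosen with earlier results of these data known. Some genes are not reported here, although sums, counts and medians over the 49 genes and the lists include those in them.

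TMM factors (edgeR 4.0.16, R 4.3.3) over the compared genes (mean of 50 counts or more) were 1.02 (WT) and 0.979 (knockout). A count of 0.5 was added before log2 ratios. Intervals were exact conditional (Clopper-Pearson, 95%, scipy 1.17.1). No molecular identifiers were counted, so reads are not independent molecules, and intervals and floors cover counting error only. No test was run, as each genotype has 1 library, and edgeR and DESeq2 served for scaling only. By rule every compared member was to be named, in full where it is a marker, past 2-fold or highest of its subfamily, and lists are given by counts, median and extremes. RefSeq promoter windows matched 37 of the 49 genes. Trends were removed with lowess (span 0.3, statsmodels 0.14.6), and scripts were tested on simulated counts. Other settings included DESeq2 1.42.0 size factors.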

Additional observations from a re-analysis of the deposited data

How the results depend on the processing

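Scaling by DESeq2 size factors, by total count or by TMM over genes with at least 3 exons or (chosen after seeing the data) over all genes, and adding 5 counts, left 4 ABC genes higher and 1 lower. Without a level filter 5 of 41 ABC genes were higher and 2 lower (3428 and 3535 of all genes). At a mean of 500 counts 2 of 24 were higher and 0 lower (465 and 453 of all genes). How many of all genes were compared at these filters is not given here, so shares cannot be set side by side. Other limits were set on the same 36 ABC genes and 12064 genes in all. A 1.5-fold limit gave 8 and 4 (2335 and 2222), a 4-fold limit 0 and 0 (306 and 336), and a whole interval beyond 2-fold 4 and 0 (733 and 736). With the GC trend removed, 36 ABC genes and 11915 genes in all were compared. Removing the trend gave 2 and 2 (835 and 913), and a linear GC trend, chosen after seeing the data, 2 and 1 (961 and 817). Among the 5673 compared genes with at least 10 exons, also chosen afterwards, 328 were higher and 374 lower. GC removal moved 27 of 36 single ratios beyond their counting interval and turned the sign of 5, none of them past 2-fold. Removing the length trend moved 2 and gave 5 higher and 1 lower (928 and 958 of the same 11915 genes). Total count scaling moved 6. With the 10 highest genes left out of the total, the family share was 0.211% in WT and 0.228% in the knockout. No paired analysis was possible because each genotype has 1 library. Genes under 50 counts, Abca5 and Abcc4 are limited by depth.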

Other observations

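Promoter windows could be read for 37 of the 49 ABC genes. In the 250 bases before the first transcribed base, 17 of the 37 held a GC box (32.7% of 32851 RefSeq windows), 13 a CCAAT box (33.9%), 5 a TATA box (12.4%), 5 an E-box (6.02%) and 5 a GATA site (9.99%), counting a gene once if any of its windows held the letters. Abcg5 and Abcg8 were each counted for the TATA box and the GATA site, although their windows share the 109 bases printed above. The same TATA box and 2 of the GATA sites thus count for both genes. The nuclear receptor letters AGGTCA were found in 4, namely Abcb6, Abcc10, Abcc2 and Abcg2, beside 14.0% of windows. The antioxidant response core was found in Abcc10, Abcc2 and Abcc4 (10.2% of windows). The genes with AGGTCA had log2 ratios of -0.22 (Abcb6), 0.18 (Abcc10), 0.03 (Abcc2) and 1.25 (Abcg2), and Abcc4, which has the antioxidant core without AGGTCA, was at -1.29.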
